A study of Mus musculus with 25 samples.

Results

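A set of 9 genes encoding transcription factors of microglia, the resident macrophages of the brain, was followed through 25 cortex libraries. They are Spi1, Cebpa, Irf8, Irf5, Runx1, Sall1, Mitf, Tfec and Bhlhe41, and they were chosen by name as 9 of the 54532 genes in the deposited expression table. Libraries came from 5 groups of 5 mice each. WT_Veh and WT_HighP are wild-type mice given vehicle or the high dose of P, a natural product derivative. AD_Veh, AD_LowP and AD_HighP are 5xFAD mice given vehicle, the low dose or the high dose of P. 5xFAD is a transgenic mouse that carries human transgenes with familial Alzheimer's disease mutations, driven in neurons by the Thy1 promoter, and it forms amyloid plaques in the cortex. The labels do not state the identity of P, its doses, the length of treatment or the ages of the mice, and no treatment is shared by all groups.

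Macrophage identity is set by a small number of DNA-binding proteins that act together. PU.1, the protein made from Spi1, is the ETS factor that opens myeloid enhancers, and it often binds next to a C/EBP, IRF or RUNX protein. In microglia, IRF8 and SALL1 are needed to keep the adult state, IRF5 drives an activated state, and the related factors MITF and TFEC belong to a family that binds promoters of lysosomal genes. Bhlhe41 encodes a repressor that is also part of the circadian clock. Because whole cortex was sequenced, more cells of a type and more RNA per cell cannot be told apart, and several of these genes are also transcribed in cells other than microglia.

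Of the 9 genes, 7 were at or above 0.5 FPKM (fragments per kilobase of gene, scaled to a library size) in all 25 libraries and were tested. Runx1 reached that level in 4 libraries and Tfec in 0, so these 2 genes fell below the filter of 0.5 FPKM in at least 5 libraries. The filter left 16450 genes. Read totals in genes ran from 15518358 to 17698222 per library. The library size implied by the FPKM values was not this total. It was lower in AD_Veh 4 (1.56331e+07 against 16323203 reads) and higher in WT_Veh 1 (1.66621e+07 against 16484922 reads). How the submitters set it is not stated in the sources used here. All 9 genes had the same coordinates in the deposited table and in the GENCODE M21 annotation of the mm10 build. Spi1 (ENSMUSG00000002111) lies at chr2:91082390-91115756 on the plus strand, Cebpa (ENSMUSG00000034957) at chr7:35119293-35121928 plus, and Irf8 (ENSMUSG00000041515) at chr8:120736358-120756694 plus. Irf5 (ENSMUSG00000029771) lies at chr6:29526625-29541871 plus, Runx1 (ENSMUSG00000022952) at chr16:92601466-92826149 minus, and Sall1 (ENSMUSG00000031665) at chr8:89027235-89044162 minus. Mitf (ENSMUSG00000035158) lies at chr6:97807052-98021349 plus, Tfec (ENSMUSG00000029553) at chr6:16833373-16898441 minus, and Bhlhe41 (ENSMUSG00000030256) at chr6:145858243-145865558 minus. Irf5 shares 1045 bp with Tnpo3 on the opposite strand, a gene at 6.31 FPKM in WT_Veh and 5.86 FPKM in AD_Veh. No label states the strand setting of the counting, so reads of Irf5 and Tnpo3 may be mixed, and the Irf5 level is uncertain to that extent. Cebpa shares 313 bp with the opposite-strand gene Gm45091, whose mean was 0.578 FPKM. Irf8 shares 20337 bp of span with Gm20388 on the same strand, listed at 0 FPKM. How reads in bases shared by genes were assigned is not stated, so the Irf8 level is uncertain to that extent. Opposite-strand genes also overlap Runx1 (Gm26626, 7292 bp, 0.0238 FPKM), Bhlhe41 (Gm43909, 1876 bp, 0.403 FPKM) and Mitf (Gm15531, 252 bp, 0 FPKM).

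The promoter table of RefSeq (build GRCm38.p6) held 8 of the 9 genes, with 14 starts; Spi1 was not matched. The 250 bases before each start were searched on both strands for exact copies of the sites that these factors bind, and 5 of the 14 windows are shown. They are 1 window of each matched gene that was called higher in 5xFAD cortex on vehicle (for Irf8 the upstream of 2), the Runx1 window with 2 composite sites, and the Bhlhe41 window with an E-box. Capitals mark a match.
Cebpa, chr7:35119043-35119292, plus strand, no match: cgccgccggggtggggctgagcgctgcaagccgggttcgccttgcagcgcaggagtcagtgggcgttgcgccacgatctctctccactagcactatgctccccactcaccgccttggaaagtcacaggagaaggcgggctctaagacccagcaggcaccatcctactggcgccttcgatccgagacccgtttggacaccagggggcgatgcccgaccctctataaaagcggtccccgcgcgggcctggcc
Irf8, chr8:120736108-120736357, plus strand, no match: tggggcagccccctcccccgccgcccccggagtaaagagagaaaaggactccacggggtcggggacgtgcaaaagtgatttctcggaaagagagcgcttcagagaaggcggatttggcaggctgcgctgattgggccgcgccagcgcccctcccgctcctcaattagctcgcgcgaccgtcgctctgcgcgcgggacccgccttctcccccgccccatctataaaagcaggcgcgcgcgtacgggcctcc
Irf5, chr6:29526375-29526624, plus strand, no match: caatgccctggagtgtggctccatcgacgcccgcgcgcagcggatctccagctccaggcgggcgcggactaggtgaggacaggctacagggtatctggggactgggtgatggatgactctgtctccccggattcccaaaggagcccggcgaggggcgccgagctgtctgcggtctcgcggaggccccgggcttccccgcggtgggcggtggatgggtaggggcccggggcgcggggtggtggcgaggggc
Runx1, chr16:92697330-92697579, minus strand, 2 matches of GGAANNGAA: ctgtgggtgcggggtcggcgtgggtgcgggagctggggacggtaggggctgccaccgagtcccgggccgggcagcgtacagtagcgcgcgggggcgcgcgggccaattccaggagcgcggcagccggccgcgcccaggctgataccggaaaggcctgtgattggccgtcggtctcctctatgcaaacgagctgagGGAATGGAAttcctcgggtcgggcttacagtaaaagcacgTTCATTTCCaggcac
Bhlhe41, chr6:145865421-145865670, minus strand, 1 match of CACGTG: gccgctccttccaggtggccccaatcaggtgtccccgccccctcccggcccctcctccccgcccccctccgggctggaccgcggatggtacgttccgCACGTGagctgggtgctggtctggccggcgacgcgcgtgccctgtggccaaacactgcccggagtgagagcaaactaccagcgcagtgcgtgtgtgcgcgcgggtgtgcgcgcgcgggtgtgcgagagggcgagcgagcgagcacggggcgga
The site GGAANNGAA, a composite site for PU.1 with an IRF, was in 6.99% of all 32851 promoter windows of the same length and in 1 of the 14 windows of these genes, the downstream Runx1 start shown above. The E-box CACGTG, bound by bHLH proteins such as BHLHE41 and MITF, was in 6.02% of all windows and in 2 of 14, the Bhlhe41 window and the upstream Runx1 window (chr16:92826075-92826324). In that Runx1 window it sat inside the longer lysosomal-gene site TCACGTGA, which 0.785% of all windows held. The RUNX site TGTGGTT, present in 4.40% of all windows, was in a Mitf window and in the Tfec window. The shorter C/EBP site TTGCNNAA, present in 9.56%, was in the same Mitf window. No window of these genes held GAGGAAGT (PU.1; 2.44% of all windows), CAGGAAGT (ETS; 2.69%), GAAANNGAA (IRF; 7.13%), TTGCGCAAT (C/EBP; 0.0487%) or TCATGTG (the MITF M-box; 3.25%). The 3 genes with windows shown and no match had GC contents of 66.4% (Cebpa), 67.2% (Irf8) and 72% (Irf5) there, against a median of 52.4% over all windows. The second Irf8 window (chr8:120738389-120738638), also without a match, had 54%.

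The cortex libraries carried the markers of microglia at every dose and genotype. Summed over 11 markers of homeostatic microglia, the level was 105 to 144 FPKM in WT_Veh, 105 to 146 in WT_HighP, 270 to 326 in AD_Veh, 216 to 274 in AD_LowP and 203 to 271 in AD_HighP. For 12 markers of plaque-associated microglia the sums were 97.9 to 134 FPKM in WT_Veh, 113 to 137 in WT_HighP, 361 to 616 in AD_Veh, 359 to 418 in AD_LowP and 327 to 526 in AD_HighP. Both lists were higher in each 5xFAD group than in each wild-type group with no overlap. Markers of other myeloid cells were low: 8 border macrophage markers summed to 1.66 to 6.36 FPKM, and 8 markers of blood monocytes and neutrophils to 0.0390 to 4.89 FPKM. The 9 lymphocyte markers summed to 0.0660 to 0.741 FPKM in WT_Veh (median 0.134), 0.0156 to 0.565 in WT_HighP, 0.293 to 0.841 in AD_Veh (median 0.616), 0.158 to 1.66 in AD_LowP and 0.452 to 1.04 in AD_HighP. Their median sum was thus higher in 5xFAD mice, and in these groups 1, 4, 2, 1 and 0 of the 9 were at 0 in every library, Cd3d among them in WT_HighP and AD_Veh. The melanocyte list, relevant because Mitf is the master factor of pigment cells, summed to 0.169 to 1.04 FPKM, and Mlana was at 0 in AD_Veh and AD_LowP. None of the tested markers of border macrophages (4 genes) or blood myeloid cells (2 genes) was called in the 2 genotype comparisons by limma. At an unadjusted p under 0.05, 1 of the 4 border macrophage genes passed on vehicle (Pf4, 0.333 FPKM in WT_Veh and 0.861 in AD_Veh) and 0 under high P, and 0 of the 2 blood myeloid genes passed in either. The part of the remaining cells in the values below was not tested. In 4 libraries (WT_HighP 1 and 2, AD_HighP 1 and 4) the choroid plexus gene Ttr exceeded 400 FPKM.

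In mice on vehicle, Cebpa, Irf8, Spi1 and Irf5 were higher in 5xFAD than in wild-type cortex, by 1.43, 1.33, 1.18 and 0.88 on the log2(FPKM + 0.5) scale. These 4 of the 7 tested genes passed an adjusted p of 0.05 (limma, Benjamini-Hochberg over 16450 genes), where 2.83% of all tested genes were called higher. The other 3, Sall1, Bhlhe41 and Mitf, had differences of 0.34, 0.32 and 0.16 and did not pass. For 5 of the 7, the 4 called genes and Sall1, no 5xFAD mouse fell within the wild-type range, against 3.02% of all tested genes. The median difference of the 7 was 0.88, beside -0.02 over all tested genes. The deposited table gives a transcription factor family for 975 tested genes, of which 17 (1.74%) were called higher. By size of the log2(FPKM + 0.5) difference among those 17, Cebpa, Irf8 and Spi1 held positions 1, 2 and 3 and Irf5 position 5. This order depends on the scale. By the ratio of mean FPKM in AD_Veh to that in WT_Veh, Irf8 (3.50) stood above Cebpa (2.91). This count by family column was chosen after the values were seen.

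Spi1 encodes PU.1. Its FPKM in the 5 mice of each group, in the order of the replicate numbers, was 1.83, 1.34, 0.853, 0.702 and 0.810 in WT_Veh and 4.35, 3.81, 3.58, 1.97 and 2.10 in AD_Veh. The lowest 5xFAD mouse, at 1.97, stood just above the highest wild-type mouse, at 1.83, and the spread within each group was wide. In both groups every male was above every female, by the sex read from Xist and Y-linked genes. The means were 1.11 ± 0.472 (SD, n = 5) and 3.16 ± 1.07 FPKM, from 249 and 701 reads over the 5 libraries. The difference was 1.18 (SE 0.205; limma, adjusted p = 0.000571).

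Cebpa encodes C/EBPα, a bZIP factor of the myeloid lineage. Vehicle-treated wild-type mice had 4.60, 4.26, 3.98, 4.96 and 4.81 FPKM, and vehicle-treated 5xFAD mice 13.97, 12.86, 14.61, 15.09 and 9.20 FPKM. The wild-type values lay close together, and even the lowest 5xFAD mouse was well clear of them. Means were 4.52 ± 0.400 and 13.1 ± 2.36 FPKM (SD, n = 5), a ratio of 2.91, and the log2 difference of 1.43 (SE 0.149) had an adjusted p of 4.56e-07 (limma). Cebpa had the highest mean of the 9 genes in AD_Veh, whereas in WT_Veh it came after Sall1 and Bhlhe41, below the range of both.

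Irf8 encodes an interferon regulatory factor that pairs with PU.1. Its values were 0.953, 0.881, 0.852, 0.763 and 0.584 FPKM in WT_Veh and 2.92, 2.80, 3.75, 2.67 and 1.98 FPKM in AD_Veh. All 5xFAD mice were above all wild-type mice, with means of 2.82 ± 0.633 and 0.807 ± 0.142 FPKM (SD, n = 5). The difference was 1.33 (SE 0.172; limma, adjusted p = 1.13e-05). Irf5, the other IRF gene of the set, had 1.36, 1.47, 0.812, 1.06 and 1.06 FPKM in WT_Veh and 2.58, 2.82, 2.48, 3.06 and 1.77 FPKM in AD_Veh. The groups did not overlap, and the difference was 0.88 (SE 0.164; limma, adjusted p = 0.00131). For Tnpo3, which overlaps Irf5, the difference was -0.10 (adjusted p = 0.778).

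Runx1, which encodes a RUNX-family partner of PU.1 in blood cell development, was low but followed the same order. It was listed at 0.160, 0.191, 0.176, 0.256 and 0.171 FPKM in WT_Veh and at 0.418, 0.356, 0.503, 0.575 and 0.388 FPKM in AD_Veh. The groups did not overlap. The means, 0.191 ± 0.0380 and 0.448 ± 0.0895 FPKM (SD, n = 5), gave a ratio of 2.35, from 192 and 440 reads (exact permutation test on the 5 against 5 mice, two-sided p = 0.00794, the smallest this design allows). With no filter on low values, limma gave Runx1 an adjusted p of 0.00884, in a fit that called 1.29% of 32752 genes higher.

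Sall1 encodes a zinc finger repressor that in the brain's immune cells marks microglia, and it is also transcribed in neural progenitors. WT_Veh mice had 7.83, 6.89, 6.71, 6.25 and 5.17 FPKM and AD_Veh mice 8.19, 7.99, 9.61, 8.16 and 7.95 FPKM. The groups did not overlap, although the lowest 5xFAD mouse was only just above the highest wild-type mouse. The difference was 0.34 (SE 0.118, 95% interval 0.09 to 0.58), which did not pass after adjustment (limma, adjusted p = 0.172). Bhlhe41 had 6.14, 6.38, 5.25, 7.48 and 6.93 FPKM in WT_Veh and 8.43, 7.73, 8.69, 9.76 and 6.25 FPKM in AD_Veh, with 1 5xFAD mouse inside the wild-type range (0.32, 95% interval 0.04 to 0.60; limma, adjusted p = 0.338).

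Mitf had 1.34, 1.76, 1.17, 1.91 and 2.52 FPKM in WT_Veh and 1.79, 1.55, 2.09, 2.52 and 1.88 FPKM in AD_Veh. The groups overlapped along most of their range, and the interval of the difference ran from -0.12 to 0.43 around 0.16 (limma, adjusted p = 0.741). Tfec, which encodes a MITF relative of macrophages, had 0 reads in all 10 wild-type libraries. In 5xFAD libraries it had 3 reads in AD_Veh 2, 1 in AD_LowP 3, 2 in AD_HighP 1 and 1 in AD_HighP 3, and 0 in the other 11. At this depth no difference in Tfec was detectable, because a count of 0 in a library allows up to 3 reads.

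**Figure D1:**
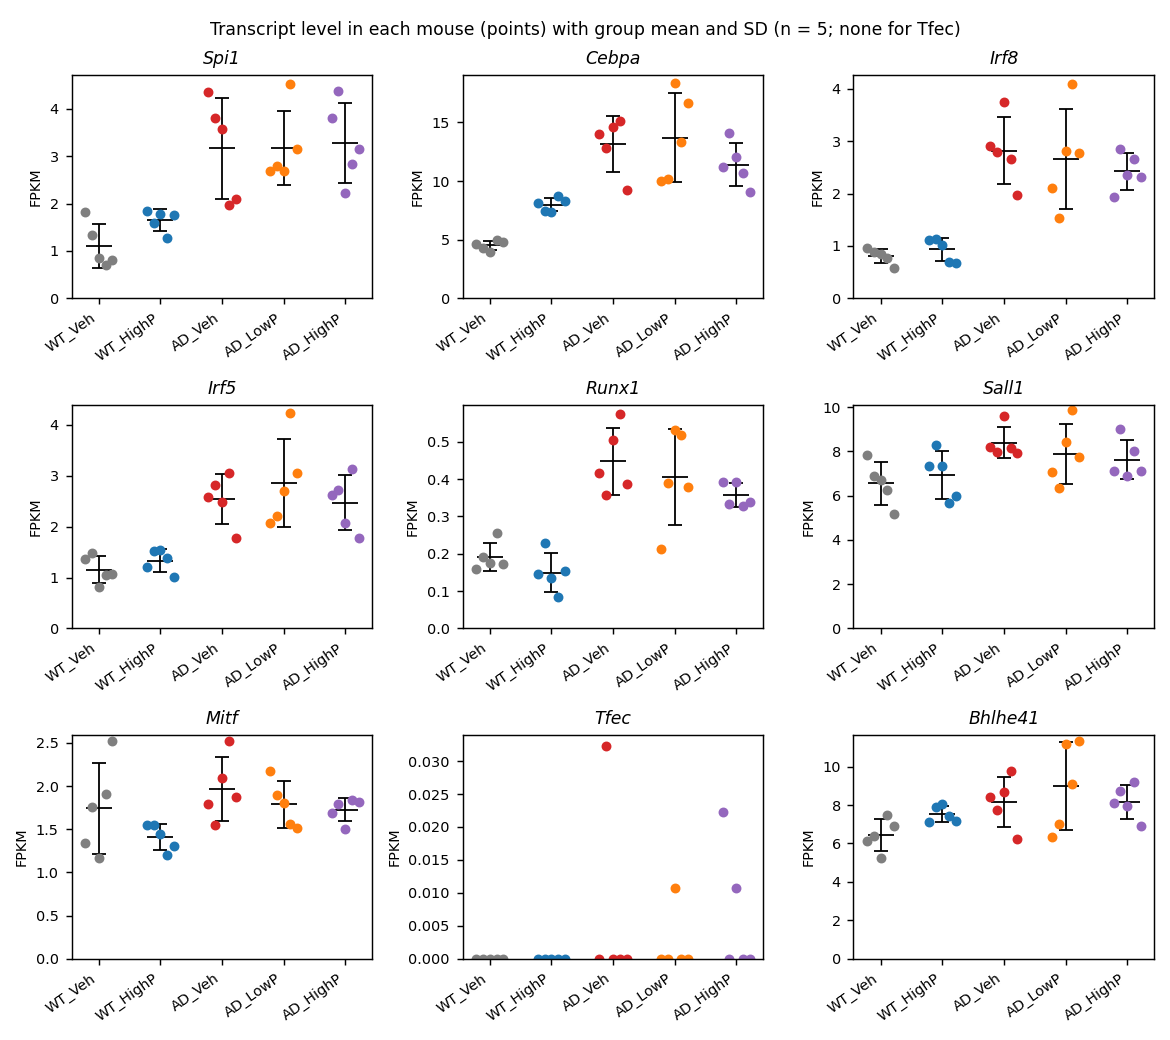
Level of each of the 9 genes in FPKM (linear vertical axis from 0) by group, with 1 point per mouse in replicate order, and the group mean and SD as bars except for Tfec. Spi1, Cebpa, Irf8, Irf5 and Runx1 are higher in AD_Veh than in WT_Veh with no overlap, while Mitf overlaps and Tfec is at 0 in 21 of 25 libraries.

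The next comparison asked whether the genotype difference was also present under the high dose of P, in 10 other mice. Irf8, Irf5 and Spi1 were higher in AD_HighP than in WT_HighP, 3 of the 7 tested genes where 1.5% of all tested genes were called higher. Cebpa, Mitf, Sall1 and Bhlhe41 did not pass, with differences of 0.48, 0.22, 0.14 and 0.10. Groups did not overlap for 4 of the 7 (the 3 called genes and Cebpa), against 3.22% of all tested genes. The 7 genes had a median difference of 0.48, and all tested genes a median of 0.00. Among genes with a transcription factor family, 5 of 975 (0.513%) were called higher.

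Irf8 was at 1.12, 1.14, 1.02, 0.700 and 0.683 FPKM in WT_HighP and at 1.94, 2.85, 2.36, 2.67 and 2.31 FPKM in AD_HighP. The lowest 5xFAD mouse stood clear of the highest wild-type mouse, and the difference of 1.04 (SE 0.172; limma, adjusted p = 0.0006) was called in every leave-one-out fit. Irf5 was at 1.21, 1.51, 1.54, 1.38 and 1.00 FPKM in WT_HighP and at 2.61, 2.73, 2.07, 3.13 and 1.78 FPKM in AD_HighP, without overlap. Its difference of 0.69 (SE 0.164; limma, adjusted p = 0.0238) did not pass without WT_HighP 1 or 5 or without AD_HighP 1, 2 or 4 (0.61 to 0.66, adjusted p 0.0581 to 0.103), nor without the 4 libraries of high Ttr (0.57, adjusted p = 0.636).

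Spi1 was at 1.85, 1.59, 1.77, 1.27 and 1.77 FPKM in WT_HighP and at 3.81, 4.37, 2.21, 2.84 and 3.14 FPKM in AD_HighP. No mouse overlapped, and the difference was 0.79 (SE 0.205; limma, adjusted p = 0.0445). This call was lost on leaving out any 1 of the 10 libraries except AD_HighP 3 (0.69 to 0.83, adjusted p 0.0693 to 0.169), and without the 4 libraries of high Ttr the difference was 0.80 (SE 0.285) with an adjusted p of 0.513. Runx1, below the filter, was listed at 0.146, 0.229, 0.136, 0.0831 and 0.153 FPKM in WT_HighP and at 0.393, 0.334, 0.392, 0.328 and 0.338 FPKM in AD_HighP. Every 5xFAD mouse was again above every wild-type mouse, a ratio of means of 2.39 (exact permutation test, n = 5 and 5, two-sided p = 0.00794).

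Cebpa was at 8.11, 7.48, 7.36, 8.72 and 8.26 FPKM in WT_HighP and at 11.2, 14.1, 12.04, 10.7 and 9.02 FPKM in AD_HighP. The groups did not overlap, but the wild-type mice stood higher than those on vehicle, and the difference of 0.48 (SE 0.149) did not pass (limma, adjusted p = 0.141). It passed when the fit held only these 10 libraries (adjusted p = 0.0306), with library weights (0.53, adjusted p = 0.00109) and after removal of each library's trend with GC content (0.66, adjusted p = 0.00255). In the same AD_HighP mice Sall1 was at 6.90 to 9.01 FPKM, Bhlhe41 at 6.89 to 9.19 FPKM and Mitf at 1.50 to 1.83 FPKM, and all 3 overlapped with WT_HighP, whose ranges were 5.66 to 8.28, 7.13 to 8.05 and 1.20 to 1.55 FPKM.

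**Figure D2:**
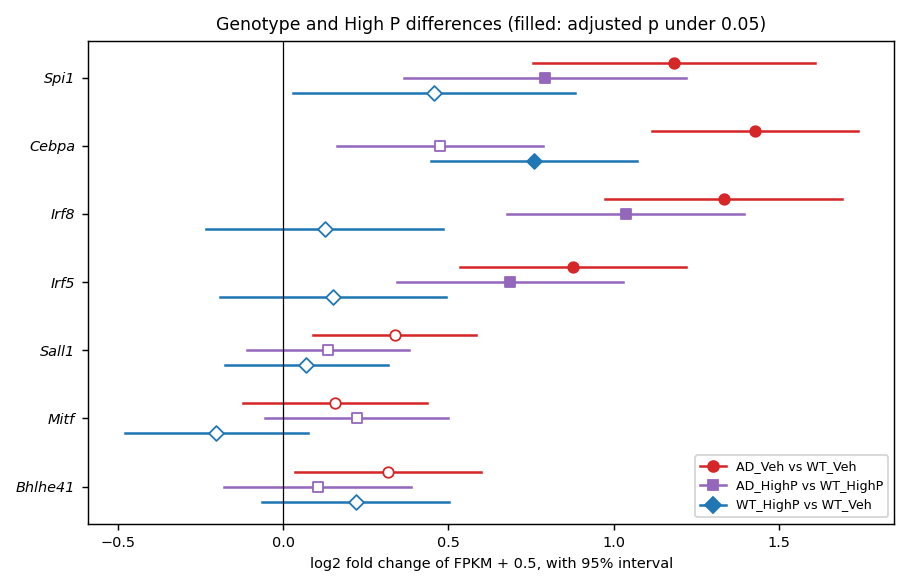
Differences of the 7 tested genes on the log2(FPKM + 0.5) scale (horizontal axis) with 95% intervals, for 5xFAD against wild type on vehicle, 5xFAD against wild type on high P, and high P against vehicle in wild type; filled symbols passed an adjusted p of 0.05. Irf8, Irf5 and Spi1 are filled in both genotype comparisons, and Cebpa on vehicle and for high P in wild type.

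The high dose of P was then compared with vehicle in wild-type mice, a comparison that shares its WT_Veh controls with the genotype comparison on vehicle. Cebpa alone among the 7 was called, higher in WT_HighP by 0.76 (SE 0.149; limma, adjusted p = 0.0263), where 1.39% of all tested genes were called higher and 4.72% had groups that did not overlap. Its means were 7.99 ± 0.566 and 4.52 ± 0.400 FPKM (SD, n = 5), a ratio of 1.77, and the lowest treated mouse (7.36 FPKM) was above the highest control (4.96 FPKM). The libraries also differed in a technical measure here. The slope of a library's log2 deviations on the GC content of the genes was 0.10 to 0.23 per 10 GC points in WT_HighP and -0.29 to 0.07 in WT_Veh, without overlap, and Cebpa has a GC content of 62.6%, against a median of 49.7% over tested genes. After removal of each library's GC trend the Cebpa difference was 0.29 (adjusted p = 0.415). The call was also lost without WT_Veh 4 or 5 or without any 1 of WT_HighP 1 to 4 (0.73 to 0.79, adjusted p 0.0519 to 0.0930), without the 4 libraries of high Ttr (0.78, adjusted p = 0.298), and in males (adjusted p = 0.115) or females (adjusted p = 0.0532) alone. High P and the GC slope cannot be told apart in these wild-type groups.

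The other 6 tested genes did not pass in this comparison. Spi1, with a GC content of 58.9%, had a difference of 0.46 (95% interval 0.03 to 0.88; limma, adjusted p = 0.150), which passed only on leaving out WT_Veh 1 (0.60, adjusted p = 0.0451). Bhlhe41, Irf5, Irf8 and Sall1 had differences of 0.22, 0.15, 0.13 and 0.07. Mitf was the only one below 0, at -0.20 (95% interval -0.48 to 0.075). Runx1 means were 0.149 and 0.191 FPKM (exact permutation test, n = 5 and 5, p = 0.214).

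**Figure D3:**
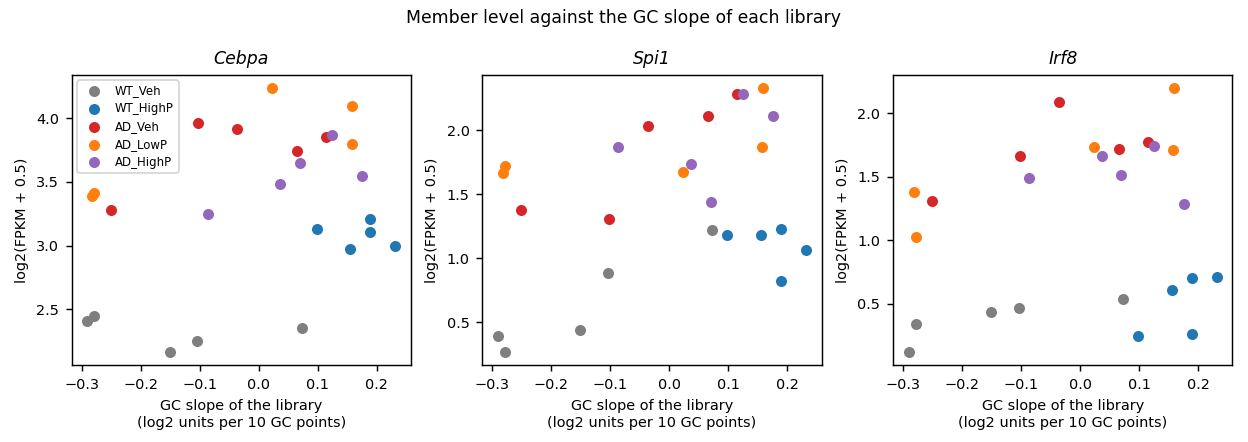
Level of Cebpa, Spi1 and Irf8 on the log2(FPKM + 0.5) scale against the GC slope of each library (log2 units per 10 GC points), with 1 point per mouse coloured by group. WT_HighP lies at slopes of 0.10 to 0.23, to the right of every WT_Veh library, whose slopes are -0.29 to 0.07.

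Within 5xFAD mice, none of the 7 tested genes differed detectably between doses. For low P against vehicle the differences ran from -0.10 (Mitf) to 0.12 (Irf5), and 0.0% of all tested genes were called. For high P against vehicle they ran from -0.19 (Cebpa) to 0.07 (Spi1), with 0.00608% of tested genes, 1 gene, called. High against low P gave -0.23 (Cebpa) to 0.03 (Spi1), with 0.0% of tested genes called. In each of these 3 comparisons 0 of the 7 genes had even an unadjusted p under 0.05 (limma), and voom on recovered reads called 0 of 7 as well. Over all genes, 491 (2.98%), 983 (5.98%) and 1019 (6.19%) had an unadjusted p under 0.05 in the 3 comparisons. The intervals bound what these groups could hide: for high P against vehicle, the 95% interval of Irf8 ran from -0.53 to 0.19, that of Spi1 from -0.36 to 0.49 and that of Cebpa from -0.50 to 0.12.

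AD_LowP had the largest SD of the 5 groups for Cebpa, Irf8, Irf5, Runx1, Sall1 and Bhlhe41. Cebpa was at 9.98, 10.1, 18.4, 13.4 and 16.6 FPKM, so that replicates 1 and 2 lay below the AD_Veh mean of 13.1 FPKM and replicates 3 and 5 above the whole AD_Veh range. Bhlhe41 was likewise lowest in replicates 1 and 2 and highest in 3 and 5, with 6.35, 7.03, 11.2, 9.08 and 11.3 FPKM. Irf8 was at 2.10, 1.53, 2.82, 4.10 and 2.77 FPKM, Irf5 at 2.06, 2.21, 2.70, 4.22 and 3.05 FPKM, and Spi1 at 2.68, 2.80, 2.68, 4.53 and 3.16 FPKM, each highest in replicate 4. Sall1, at 7.09, 6.33, 8.43, 9.87 and 7.73 FPKM, was also highest there. The GC slopes of this group also had the widest spread, from -0.28 to 0.16, and replicates 1 and 2 had the lowest slopes. Runx1 ran from 0.213 to 0.532 FPKM, and Mitf from 1.51 to 2.17 FPKM. For Runx1 in high P against vehicle the means were 0.357 ± 0.0327 and 0.448 ± 0.0895 FPKM (SD; exact permutation test, n = 5 and 5, p = 0.0556).

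Whether high P acted differently by genotype was tested with an interaction term. None of the 7 passed, and 0.0% of all tested genes were called, while 1138 (6.92%) had an unadjusted p under 0.05 and voom called 0 of the 7. Cebpa was the 1 member with an unadjusted p under 0.05 (limma, 0.000152; adjusted p = 0.546), at -0.95 (SE 0.211, 95% interval -1.39 to -0.51). It passed with library weights (-0.97, adjusted p = 0.0305), and after GC correction it was -0.66 (adjusted p = 0.862). The other 6 ran from -0.39 (Spi1) to 0.07 (Mitf).

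Relatives of these factors were read from the same fit, in which 2.83% of all tested genes were called higher on vehicle and 11.4% had an unadjusted p under 0.05. Among 9 tested ETS genes other than Spi1, on a list that does not hold the whole family, 1 rose in AD_Veh against WT_Veh. This was Elf4 (0.312 ± 0.129 to 0.859 ± 0.260 FPKM, 0.74, limma adjusted p = 0.00451). Elf4 averaged under 0.5 FPKM in both wild-type groups, so it can have passed the filter through 5xFAD mice alone. Outside the list, Elk3, an ETS gene by the deposited family column, also rose (1.82 to 2.99 FPKM, 0.60, limma adjusted p = 0.0131). Elk3 was named after its value was seen. Among 5 tested IRF genes, 1 rose, Irf9, the DNA-binding part of the type I interferon complex (1.60 ± 0.164 to 3.29 ± 0.603 FPKM, 0.84; adjusted p = 0.000242 by limma), and it was also higher under high P (0.74, adjusted p = 0.00198). None of 3 tested C/EBP genes passed, with Cebpd nearest (0.837 ± 0.0929 to 2.33 ± 1.12 FPKM, 0.97, adjusted p = 0.0520), a gene named after its value was seen. The counts were 0 of 3 for RUNX and CBF genes, 0 of 2 for SALL genes, 0 of 2 for Tfeb and Tfe3 of the MiT family, and 0 of 1 for Bhlhe40 (31.1 ± 6.74 and 31.5 ± 4.60 FPKM). At an unadjusted p under 0.05 these last lists had 0, 1, 0 and 0 genes, and the C/EBP list 1. Under high P no gene of the ETS, C/EBP, RUNX and CBF, SALL, MiT or BHLHE4 lists was called between genotypes, and at an unadjusted p under 0.05, which 10.3% of all tested genes reached, these lists had 4 of 9, 0, 0, 0, 0 and 0 genes.

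In 5xFAD on vehicle, where 2.83% of all tested genes were called higher, 3 of 23 other factors known from macrophages rose and 0 fell. Among them were Ikzf1, the lymphoid and myeloid factor Ikaros (0.94; adjusted p = 0.00233), and Stat3, the cytokine-activated factor (5.40 ± 0.511 to 8.97 ± 0.721 FPKM, 0.68; adjusted p = 1.23e-05), both by limma. Under high P, 0 of the 23 were called between genotypes, and 8 had an unadjusted p under 0.05, beside 1.5% of all tested genes called higher and 10.3% under an unadjusted 0.05. On vehicle, 10 of the 23 had an unadjusted p under 0.05 (limma), beside 11.4% of all tested genes. The median of the 23 was 0.20 on vehicle, beside -0.02 over all tested genes.

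Most of the listed genes that depend on PU.1 in myeloid cells rose. Of 22 tested, 17 were called higher and 0 lower in AD_Veh against WT_Veh, where 2.83% of all tested genes were called higher, with a median difference of 1.09 beside -0.02 for all tested genes. The largest were Tyrobp, a signalling adaptor (6.48 ± 1.69 to 41.2 ± 12.7 FPKM), Trem2, its receptor partner (2.17 ± 0.564 to 14.7 ± 2.70), Lyz2, lysozyme (5.995 ± 1.02 to 36.8 ± 7.90), and Cd68, a lysosomal membrane protein (6.70 ± 0.497 to 35.9 ± 8.54). Under high P, 16 of 22 were called higher, beside 1.5% of all tested genes, with a median of 0.90. Tyrobp, Trem2 and Cd68 also stand in the plaque-associated marker list, so these 2 lists are not independent. Ptprc, Cybb, Btk, Ncf4 and Tlr4 averaged under 0.5 FPKM in both wild-type groups and above it in every 5xFAD group. Such genes can pass the filter through 5xFAD mice alone, which favours a call of higher, so the counts are not free of the filter. For high and low P against vehicle in 5xFAD mice 0 of the 22 were called by limma, with medians of -0.30 and -0.25. In each of these 2 comparisons 8 of the 22 had an unadjusted p under 0.05, beside 5.98% and 2.98% of all tested genes.

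Of 20 lysosomal genes of the CLEAR network, the targets of the MiT family, 8 rose and 0 fell in AD_Veh against WT_Veh, beside 2.83% of all tested genes called higher, and the median was 0.27. Among those that rose were Ctsd, cathepsin D (77.2 ± 6.61 to 269 ± 48.5 FPKM, 1.78), Atp6v0d2, a proton pump subunit listed at 0 in all WT_Veh mice and at 0.848 ± 0.372 FPKM in AD_Veh, and Hexa (18.1 ± 2.65 to 41.8 ± 6.30 FPKM, 1.19). Under high P, 7 of 20 were called higher, beside 1.5% of all tested genes. Atp6v0d2, at 0 in WT_Veh, can have passed the filter through AD mice alone, which favours a call of higher. The counts of the CLEAR list are thus not free of the filter. Ctsd is also in the plaque-associated list. In WT_HighP against WT_Veh 0 genes of the PU.1 and CLEAR lists were called by limma, and 1 of 22 and 6 of 20 had an unadjusted p under 0.05, beside 27.8% of all tested genes.

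Because microglial markers as a whole were higher in 5xFAD cortex, each gene was also set against them. The mean log2(FPKM + 0.5) of the 11 homeostatic markers was subtracted in each mouse, and the values are a description without a test. That mean was itself 1.00 higher in AD_Veh than in WT_Veh and 0.76 higher in AD_HighP than in WT_HighP, so a gene at a steady level comes out lower by that much. Sall1, Mitf and Bhlhe41 were then lower in 5xFAD than in wild-type mice, with no overlap, on vehicle (differences of group means of -0.67, -0.85 and -0.69) and under high P (-0.63, -0.54 and -0.66). Of all tested genes 75.7% and 68.7% were lower without overlap in the same way, so this says nothing particular about these 3 genes. Spi1, Cebpa and Irf5 overlapped between genotypes in both comparisons, with differences of 0.18, 0.42 and -0.13 on vehicle and 0.03, -0.29 and -0.08 under high P. Irf8 was 0.33 higher with overlap on vehicle and 0.27 higher without overlap under high P, as were 0.365% of all tested genes. Subtracting a mean that rose by 0.76 pulls most genes down, so this share is small by construction and does not set Irf8 apart. The share of Sall1, Mitf and Bhlhe41 RNA that came from cells other than microglia was not tested.

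**Figure D4:**
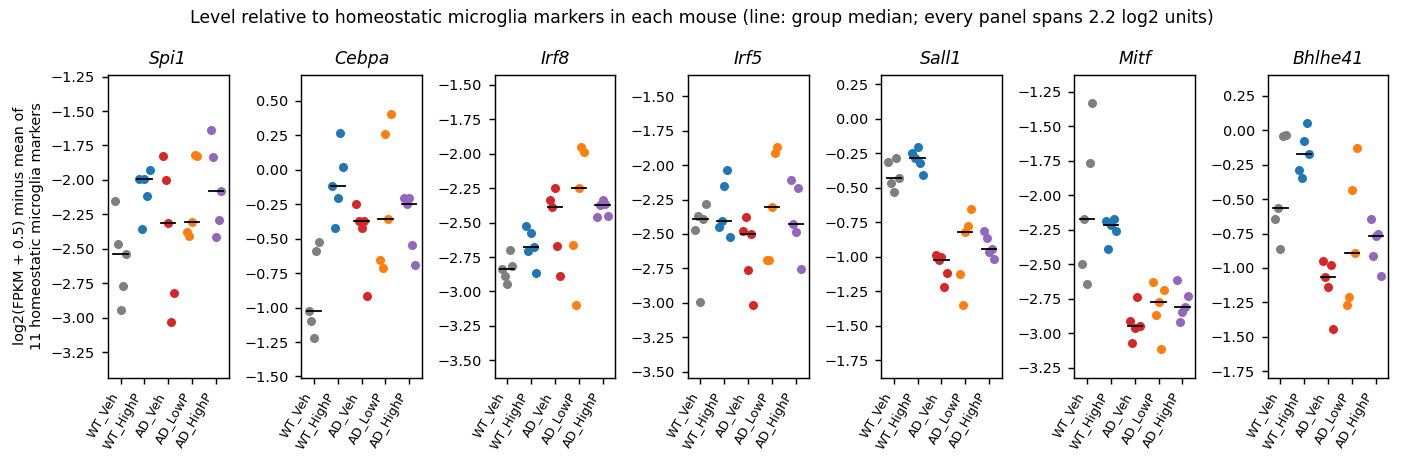
Level of each of the 7 tested genes minus the mean of 11 homeostatic microglia markers, in log2(FPKM + 0.5) units, with 1 point per mouse and the group median as a line; each panel spans 2.2 units. Sall1, Mitf and Bhlhe41 sit lower in the AD_Veh and AD_HighP mice than in the wild-type mice of the same treatment, and Spi1, Cebpa and Irf5 overlap between genotypes; in AD_LowP, Bhlhe41 (up to -0.13) and Mitf (up to -2.63) reach into the WT_Veh ranges.

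The levels, which FPKM gives per length, were also set in order. In WT_Veh the means ran Sall1 6.57, Bhlhe41 6.43, Cebpa 4.52, Mitf 1.74, Irf5 1.15, Spi1 1.11, Irf8 0.807, Runx1 0.191 and Tfec 0 FPKM. Sall1 and Bhlhe41 overlapped, as did each neighbouring pair from Mitf to Irf8, while Bhlhe41 with Cebpa, Cebpa with Mitf, Irf8 with Runx1, and Runx1 with Tfec did not. In AD_Veh the order was Cebpa 13.1, Sall1 8.38, Bhlhe41 8.17, Spi1 3.16, Irf8 2.82, Irf5 2.54, Mitf 1.96, Runx1 0.448 and Tfec 0.00647 FPKM. There the ranges of neighbours overlapped except for Bhlhe41 with Spi1, Mitf with Runx1, and Runx1 with Tfec. In WT_HighP the order was Cebpa 7.99, Bhlhe41 7.54, Sall1 6.93, Spi1 1.65, Mitf 1.41, Irf5 1.33, Irf8 0.933, Runx1 0.149 and Tfec 0 FPKM, with gaps between Sall1 and Spi1, between Irf8 and Runx1 and between Runx1 and Tfec. AD_LowP ran Cebpa 13.7, Bhlhe41 8.996, Sall1 7.89, Spi1 3.17, Irf5 2.85, Irf8 2.67, Mitf 1.79 and Runx1 0.406 FPKM, and AD_HighP had the same order at 11.4, 8.17, 7.63, 3.27, 2.46, 2.43, 1.73 and 0.357 FPKM. Tfec was last in both. In both groups the ranges of neighbours overlapped except for Sall1 with Spi1, Mitf with Runx1, and Runx1 with Tfec, and in AD_HighP Irf8 with Mitf did not overlap either. Between WT_Veh and AD_Veh, Mitf moved from above to below Spi1, Irf8 and Irf5 in the order of means, although its own level did not differ detectably. In WT_HighP it was also below Spi1, and Cebpa was already first.

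The tested genes whose pattern over the 25 libraries was most like each member were named by Pearson correlation of log2(FPKM + 0.5). The libraries share genotype, treatment, sex and GC slope, so the values are descriptions. For Spi1 they were C1qa (0.94), Unc93b1, Tgfb1, Cd37 and C1qb (0.92). For Cebpa they were Ctsz (0.93), Myo1e, C1qc, Vsir and C1qa (0.90), for Irf8 Myo1f (0.97), Man2b1, Lgmn, Ctsd and Laptm5 (0.96), and for Irf5 Gpr84 (0.93), C1qa, C1qc, Lgmn and Arpc1b (0.92). Sall1 was nearest to Selplg (0.84), Pik3ap1, Edem2, Clu and Stat3 (0.80). Mitf was nearest to Nipbl (0.85), Cttnbp2nl, Arhgdib, Efcab14 and Crispld1 (0.81), and Bhlhe41 to Adcy9 (0.84), Acox3, Abhd12, Ndst1 and Cebpa (0.79). Among members, the highest value was for Irf8 with Irf5 (0.91) and the lowest for Sall1 with Mitf (0.08).

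With the group means subtracted, which leaves differences among mice of a group, the pairs changed. Irf8 and Sall1 were each other's nearest gene of all 16450 (0.88), and after GC correction they still were (0.84). Both were higher in every male than in every female of WT_Veh and WT_HighP. The part of sex in this correlation was not tested. Sall1 was followed by Csf1r (0.83), Selplg, Laptm5 and Rps2 (0.81), and Irf8 by Stat3 (0.83), C1qc, Sdf2l1 and Myo1f (0.81). Cebpa and Bhlhe41 correlated at 0.86 before and 0.33 after GC correction. Cebpa was nearest to Abca2 (0.89), Qsox1, Ndst1, Zfp651 and Bhlhe41, Bhlhe41 to Cebpa, Tfcp2l1 (0.84), Adcy9, Cit and Mical3, and Irf5 to Hps4 (0.85), Cavin1, Tmem119, Arpc1b and Hmg20b. Spi1 was nearest to Banf1 (0.89), Fbxl6, Anapc11, Edf1 and Aurkaip1, and Mitf to Crispld1 (0.88), Nipbl, Mdm2, Aftph and Efcab14.

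**Figure D5:**
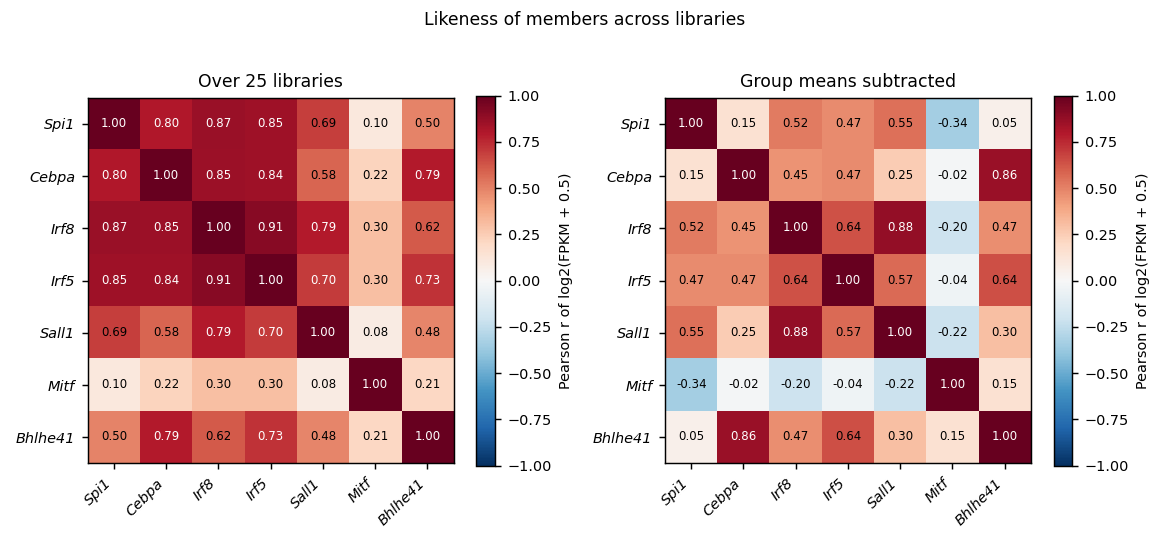
Pearson correlation of log2(FPKM + 0.5) between the 7 tested genes over 25 libraries (left) and after subtracting the group means (right), with the value printed in each cell. Irf8 with Sall1 (0.88) and Cebpa with Bhlhe41 (0.86) are the highest pairs on the right, and Mitf is at 0.30 or below with every other gene on both sides.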

How the data were processed

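The submitters deposited 1 table of FPKM values for 54532 genes in 25 mouse cortex libraries, each from 1 mouse. Libraries were made from poly-A selected RNA with a strand-specific protocol, per the labels' protocols, and HISAT2 and the mm10 build are named in the submitters' processing notes; no source used here gives the counting tool, its strand setting or the annotation. The labels say that groups hold 5 mice each. Multiplying the deposited FPKM values by gene length gave whole multiples of 1 read in each library (100% of nonzero values, within 0.01 of a read), so reads per gene could be recovered.

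Values were tested as log2(FPKM + 0.5) with limma 3.58.1 (R 4.3.3): a mean per group over all 25 libraries, 20 residual degrees of freedom, moderated variances with a trend, a floor of 0.5 FPKM reached by 5 or more libraries, two-sided tests and Benjamini-Hochberg adjustment over 16450 genes, called at an adjusted p under 0.05. A fold change on this scale understates the change of low genes. In simulated data with 200 changed genes the procedure was tested and its calls checked. The 2 members under the filter were compared by exact permutation over mice. Counting error for Tfec was bounded at 3 reads.

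The GC slope of a library is the slope of its log2 deviations from the gene means on the GC content of the genes in GENCODE M21. The alternatives were other pseudocounts and filters, fits of only the groups compared, a replicate block, library weights, a sex term, quantile normalization, GC correction, voom on recovered reads and leaving out each replicate. Analyses of males, of females and without the 4 libraries of high Ttr were chosen after seeing the data. Sex was read from Xist and Y-linked genes.

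All 9 members are named with their values. From each family and pathway list up to 4 called genes with the largest differences on vehicle are named, and for each member the 5 most similar genes. Some genes that these rules pick are not reported here. The members and lists were chosen with earlier results of these data known. Of the marker lists not described elsewhere, 1 of 7 astrocyte genes was higher in AD_Veh than in WT_Veh, 1 of 6 inhibitory neuron genes was lower in AD_HighP than in WT_HighP, and 1 of 6 endothelial genes was lower in WT_HighP than in WT_Veh. Of all 16450 tested genes, 465 were called higher in the first of these comparisons, 42 lower in the second and 294 lower in the third. In these 3 comparisons 0 genes of the excitatory neuron (6 tested), oligodendrocyte (6), choroid plexus (4) and red blood cell (4) lists were called.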

Additional observations from a re-analysis of the deposited data

Results flagged for a closer look

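Of 43 sets of 5 mice examined, 1 per gene and group with any reads, 4 held a mouse that stood apart from the other 4 of its group, and chance gives about 1 in 20. For Spi1 it was AD_LowP 4, at 4.53 FPKM, where the other mice of that group were at 2.68 to 3.16 FPKM. For Sall1 it was AD_Veh 3, at 9.61 FPKM, where the others were at 7.95 to 8.19 FPKM. The other 2 were Tfec in AD_Veh 2 (0.0324 FPKM, 3 reads) and Tfec in AD_LowP 3 (0.0108 FPKM, 1 read), each in a group whose remaining mice had 0 reads. Where 1 mouse alone has reads, its gap to the others is the whole range at any level. These 2 flags were thus fixed in advance and are not to be set against the 1 in 20. Without them, the flags of Spi1 and Sall1 are about as many as chance gives.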

How the results depend on the processing

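The 4 calls between genotypes on vehicle (Spi1, Cebpa, Irf8 and Irf5) held in each leave-one-out fit, where 4 members were called throughout, and under each alternative but the analysis of females, which called 2 (Cebpa and Irf8). Under high P the number of members called was 1 in males, 1 in females and 1 without the 4 libraries of high Ttr, and 1 to 3 on leaving out 1 mouse. Spi1 there also missed with a pseudocount of 0.1 (adjusted p = 0.0508), no filter (0.0990), quantile normalization (0.0613) and voom (0.0509), and Irf5 with no filter (0.0531). For high P in wild type 0 members were called with no filter, GC correction, males, females or without high Ttr, and 0 to 2 on leaving out 1 mouse. The Runx1 ratio under high P was 2.86 without the 4 libraries of high Ttr, where 3 against 3 mice allow no exact p below 0.1.

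Of all genes, on vehicle 510 were called between genotypes, with 811 by library weights, 309 in males and 215 in females. Under high P 288 were called, with 517 in the fit of only these groups, 970 by library weights, 124 in males, 76 in females and 132 without high Ttr. For high P in wild type 522 were called, with 0 for no filter, 1513 for only these groups, 3371 by library weights, 829 with a sex term, 22 after GC correction, 0 in males, 2278 in females, 0 without high Ttr, and 0 to 2724 on leaving out 1 mouse. Low P in 5xFAD gave 2 with no filter, 2 in males and 751 in females. High P in 5xFAD gave 0 with no filter, voom, males or without high Ttr, 14 in females and 0 to 2 by leave-one-out; high against low P gave 329 in males and 0 to 2 by leave-one-out. For the interaction, library weights called 1 member (Cebpa, lower) and 9 genes, and leave-one-out 0 to 1 gene. The causes were not tested.

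The replicate numbers are not stated to pair mice, and same-numbered mice did not deviate together (mean correlations between groups of -0.18 to 0.11). With the number as a replicate block, no member call changed, and 218 genes were called for high P in wild type; the numbers coincide with sex.

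Of 1268 values of single genes under alternatives, 64 had the other sign than in the report, 0 of them called in either fit. By GC correction these were, for high P in wild type Irf5 (-0.069), for high P in 5xFAD Spi1 (-0.055), for high against low P Spi1 (-0.11), Mitf (0.015), and for interaction Mitf (-0.062). By library weights these were, for low P in 5xFAD Spi1 (-0.085), for high P in 5xFAD Spi1 (-0.14), and for high against low P Spi1 (-0.054), Mitf (0.021). In females these were, for genotype on vehicle Mitf (-0.011), for low P in 5xFAD Irf8 (0.47), Sall1 (0.11), for high P in 5xFAD Irf8 (0.090), Irf5 (0.017), for high against low P Spi1 (-0.30), Mitf (0.19), and for interaction Irf8 (0.064), Bhlhe41 (0.0054). In males these were, for genotype under high P Sall1 (-0.0049), for high P in wild type Mitf (0.077), for low P in 5xFAD Spi1 (-0.45), Cebpa (-0.16), Irf5 (-0.15), Mitf (0.092), Bhlhe41 (-0.055), for high P in 5xFAD Spi1 (-0.19), Bhlhe41 (-0.0044), for high against low P Cebpa (0.0056), Irf8 (0.14), Irf5 (0.073), Sall1 (0.071), Bhlhe41 (0.050), and for interaction Mitf (-0.17). Without high Ttr these were, for high P in wild type Irf8 (-0.0088), Sall1 (-0.045), and for high P in 5xFAD Bhlhe41 (-0.047). Leave-one-out values fell on both sides of 0 for high P in wild type Sall1 (-0.0059 to 0.14), for low P in 5xFAD Spi1 (-0.10 to 0.15), Cebpa (-0.083 to 0.13), Irf8 (-0.25 to 0.044), Irf5 (-0.014 to 0.21), for high P in 5xFAD Spi1 (-0.062 to 0.18), Irf5 (-0.14 to 0.049), Bhlhe41 (-0.080 to 0.071), for high against low P Spi1 (-0.064 to 0.15), Irf8 (-0.22 to 0.079), Sall1 (-0.11 to 0.043), Mitf (-0.076 to 0.025), and for interaction Mitf (-0.050 to 0.16).

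With 5 mice a group the median standard error was 0.15 on the log2 scale. Tfec, with at most 3 reads in a library, could not be compared at this depth.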

Other observations

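Xist and Y-linked genes showed 3 males (replicates 1 to 3) and 2 females (replicates 4 and 5) in each group. Irf8 was higher in every male than in every female of WT_Veh (0.852 to 0.953 against 0.584 to 0.763 FPKM), WT_HighP (1.02 to 1.14 against 0.683 to 0.700 FPKM) and AD_Veh (2.80 to 3.75 against 1.98 to 2.67 FPKM), and the sexes overlapped in AD_LowP and AD_HighP. Sall1 had the same order in WT_Veh (6.71 to 7.83 against 5.17 to 6.25 FPKM) and WT_HighP (7.36 to 8.28 against 5.66 to 5.99 FPKM). Spi1 had it in WT_Veh (0.853 to 1.83 against 0.702 to 0.810 FPKM) and AD_Veh (3.58 to 4.35 against 1.97 to 2.10 FPKM). In AD_LowP Spi1 had the opposite order, with males at 2.68 to 2.80 and females at 3.16 to 4.53 FPKM. Over the 7 tested genes and 5 groups, males were wholly above females in 10 of 35 cases and wholly below in 7. The same count was not made over all tested genes, so it says nothing particular about these genes. The genes named here were picked after their values were seen, and the sex difference was not tested.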
